A study of Mus musculus with 2 samples.

Results

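The members described here are the H3K4me3 peaks that stand at starts of genes typed as noncoding by GENCODE M21 and away from its protein-coding starts. They were chosen by position alone. A peak of the pooled list was taken when it overlapped a window reaching 1000 bp up- and downstream of any transcript start of a GENCODE M21 gene of 7 noncoding types and lay over 1000 bp from every protein-coding transcript start. The types were lincRNA, antisense, processed_transcript, sense_intronic, sense_overlapping, bidirectional_promoter_lncRNA and TEC, which stands for loci still to be tested by experiment. The rule found 579 of 18898 pooled peaks, or 3.06%. A further 15160 peaks (80.2%) lay within 1000 bp of a protein-coding start and are called coding promoter peaks, and 3159 belonged to neither class. By RefSeq, 55 members (9.50%) lay within 1000 bp of an mRNA start, 26 of them of a curated mRNA. Among the 55 were Trerf1, Zswim6 and Ptpmt1, typed processed_transcript by M21, each at a RefSeq mRNA start of the same gene.

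The study measured H3K4me3 by ChIP-seq in 1 group, unstimulated bone marrow-derived macrophages (BMDM) of C57BL/6J mice, with no treatment or other genotype. There were 2 biological replicates, each made from 10 ng of DNA, and the age and sex of the animals are not recorded. The replicates were prepared separately but carry 1 donor entry, so the spread between them may be technical. The labelled cell type was checked at marker promoters: 8 of 8 macrophage markers, among them Csf1r, Adgre1 and Spi1, had a peak in both replicates, while the 14 markers of B cells, T cells, neutrophils, stroma and liver had none in either replicate.

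H3K4me3 is a methylation mark laid down on the histone H3 tail around active or poised transcription starts, and it is richest at promoters dense in CpG dinucleotides. Long noncoding RNA genes are transcribed by RNA polymerase II and most carry the mark at their starts when they are in use. Some act through the RNA itself, as in X inactivation or in nuclear bodies, and others serve as hosts from which microRNAs or small nucleolar RNAs (snoRNAs) are processed.

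The fold given below for a peak is the authors' own value, read from the pooled list unless a replicate is named. It ranks peaks within 1 list and is not a like measure between lists, and because no read counts were used, the depth is unknown. A member counts as found in a replicate when a peak of that replicate's own list overlaps it by at least 1 bp. The fold and width given for a replicate are those of its overlapping peak, or of the one with the highest fold where there are several. Of the 402 members found in both replicates, 5 were split over several peaks in replicate 1 and 28 in replicate 2.

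The range of CpG density among the members can be read from the DNA itself. The 5 sequences here are shown because 3 of them start CpG-poor peaks and 2 start CpG-rich ones, all found in both replicates. Each runs 5′ to 3′ on the strand of the gene over the 100 bases before and 100 bases from the annotated start, in GRCm38.p6 (mm10) as held by RefSeq, and capitals mark CpG dinucleotides.
F630028O10Rik, host of Mir223, chrX:96239866-96240065, plus strand: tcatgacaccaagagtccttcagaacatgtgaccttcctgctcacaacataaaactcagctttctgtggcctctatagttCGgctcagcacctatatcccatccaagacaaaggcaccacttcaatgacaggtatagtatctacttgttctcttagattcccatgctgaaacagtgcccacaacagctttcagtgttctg
AI662270, chr11:83224049-83224248, plus strand: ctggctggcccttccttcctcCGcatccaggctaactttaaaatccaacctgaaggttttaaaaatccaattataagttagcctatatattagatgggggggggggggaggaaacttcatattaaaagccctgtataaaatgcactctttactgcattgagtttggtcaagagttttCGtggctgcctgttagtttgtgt
Mir142hg, chr11:87755477-87755676, plus strand: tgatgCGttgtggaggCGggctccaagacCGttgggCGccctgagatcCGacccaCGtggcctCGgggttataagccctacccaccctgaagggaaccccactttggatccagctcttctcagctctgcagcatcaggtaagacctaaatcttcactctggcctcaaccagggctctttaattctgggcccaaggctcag
Lncpint, chr6:31218123-31218322, minus strand: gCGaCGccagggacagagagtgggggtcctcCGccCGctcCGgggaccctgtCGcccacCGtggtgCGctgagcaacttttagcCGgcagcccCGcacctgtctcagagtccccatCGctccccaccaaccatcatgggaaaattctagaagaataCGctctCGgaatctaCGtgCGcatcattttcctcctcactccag
Snhg12, chr4:132308796-132308995, plus strand: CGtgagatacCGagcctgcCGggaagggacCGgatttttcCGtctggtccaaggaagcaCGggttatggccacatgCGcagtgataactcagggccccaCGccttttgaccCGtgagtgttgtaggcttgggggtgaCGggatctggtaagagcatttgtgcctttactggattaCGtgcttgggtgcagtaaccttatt

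These windows hold 1 CpG in F630028O10Rik, 2 in AI662270 and 7 in Mir142hg, against 15 in Lncpint and 11 in Snhg12. In Mir142hg the 7 CpGs all stand upstream of the start. Their peaks spanned 3815 bp at F630028O10Rik, 3241 bp at AI662270, 3947 bp at Mir142hg, 2492 bp at Lncpint and 1657 bp at Snhg12. These 5 were picked for their CpG content, and F630028O10Rik and Mir142hg are among the 10 widest members found in both replicates. Over all members the median widths were close, 973.5 bp at an observed/expected CpG ratio below 0.4 and 945 bp at 0.4 or more.

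The microRNAs of marked hosts were the second set of sequences the results turn on. Hosts were taken here as genes whose start lay nearest the summit of a member found in both replicates. Of 33 microRNAs annotated inside such hosts, 27 had a mature sequence in the RefSeq table (GRCm38.p6). Shown here are those of hosts discussed below, 5′ to 3′, with the seed, bases 2 to 8, in capitals. The first 4 each carry a seed that no other mature microRNA in the table has.
miR-142a-5p, chr11:87756867-87756887, plus strand: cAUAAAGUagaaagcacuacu
miR-142a-3p, chr11:87756903-87756925, plus strand: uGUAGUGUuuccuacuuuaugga
miR-155-5p, chr16:84714143-84714165, plus strand: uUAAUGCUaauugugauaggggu
miR-223-3p, chrX:96242884-96242905, plus strand: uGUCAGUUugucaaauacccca

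The other 8 fall into 4 pairs with a shared seed. The miR-181 pair comes from Gm4258, the miR-15/16 pair from Dleu2 and the miR-17/20 pair from Mir17hg. The let-7 pair shares its seed across different hosts, Lncppara for let-7b and Mir99ahg for let-7c.
miR-181a-5p, chr1:137966468-137966490, plus strand: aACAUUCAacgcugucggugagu
miR-181b-5p, chr1:137966650-137966673, plus strand: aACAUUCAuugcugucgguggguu
miR-15a-5p, chr14:61632075-61632096, minus strand: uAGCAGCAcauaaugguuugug
miR-16-5p, chr14:61631936-61631957, minus strand: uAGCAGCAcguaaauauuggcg
miR-17-5p, chr14:115043684-115043706, plus strand: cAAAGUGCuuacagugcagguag
miR-20a-5p, chr14:115044183-115044205, plus strand: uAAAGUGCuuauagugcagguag
let-7b-5p, chr15:85707325-85707346, plus strand: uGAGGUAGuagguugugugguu
let-7c-5p, chr16:77599672-77599693, plus strand: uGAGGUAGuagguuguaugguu

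As a class, noncoding promoter peaks ranked lower and were poorer in CpG than coding promoter peaks. Their median fold was 9.27, against 19.7 for coding promoter peaks. This put the median noncoding peak at the 33.4th percentile of fold, against the 58.4th for coding promoter peaks. Noncoding folds still spanned 2.01 to 47.8, and coding folds reached 52.2. The median width was 966 bp for noncoding and 1183 bp for coding promoter peaks. The median ratio of observed to expected CpG was 0.471 in noncoding and 0.577 in coding promoter peaks, with a GC content of 50.7% and 52.4%. Repeats, counted as soft-masked bases, took a median of 11.9% of a noncoding and 10.7% of a coding promoter peak.

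The same order held in each replicate's own list, where the rule found 632 of 20031 peaks in replicate 1 and 436 of 16376 peaks in replicate 2. The median percentile of fold was 33.6 and 33.2 for noncoding peaks in replicates 1 and 2, against 59.8 and 54.9 for coding promoter peaks, a difference of -24.0 ± 3.16 points (SD, n = 2). The median CpG ratio was 0.458 and 0.508 for noncoding peaks, against 0.579 and 0.582 for coding promoter peaks, a difference of -0.0970 ± 0.0331 (SD, n = 2). Both differences were larger than the spread between the replicates. The median width was 936.5 and 889.5 bp for noncoding peaks, against 1218 and 963 bp for coding promoter peaks. That difference was -177.5 ± 147 bp (SD, n = 2), so its size was uncertain although both replicates gave the same sign. No test was made, since 1 group of 2 libraries offers no comparison between conditions and peaks are not replicates.

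**Figure D1:**
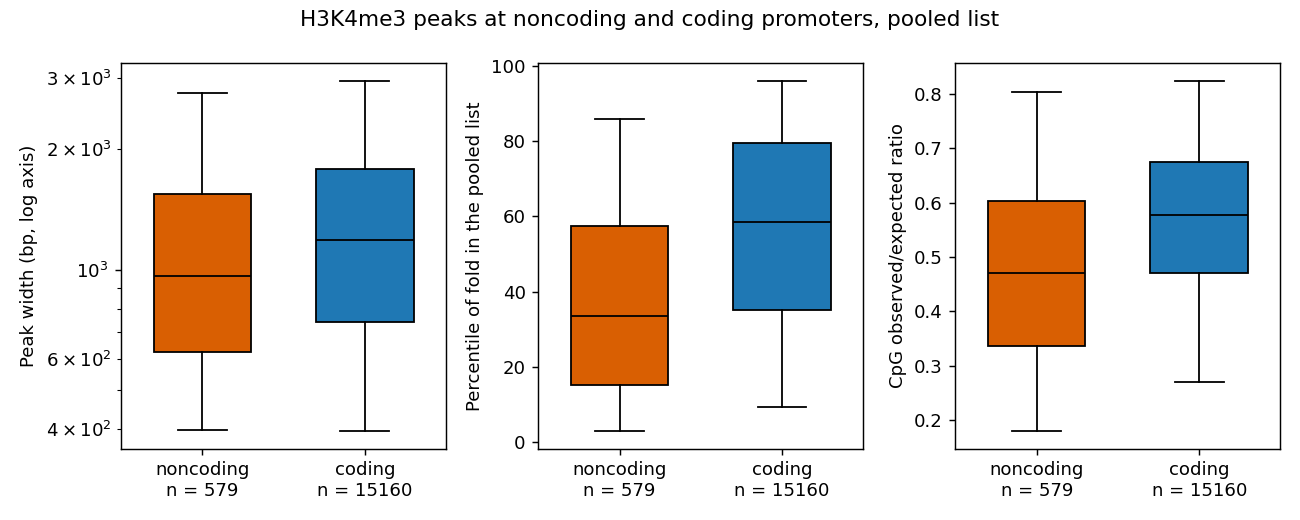
Width (bp, log axis), percentile of the authors' fold in the pooled list, and CpG observed/expected ratio of the 579 noncoding (left) and 15160 coding (right) promoter peaks. Boxes span the quartiles with the median as a line, and whiskers reach the 5th and 95th percentiles. Noncoding medians are lower in each panel (966 against 1183 bp, 33.4 against 58.4, and 0.471 against 0.577), with wide overlap.

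Among the 579 members, 402 were found in both replicates (69.4%, 95% Wilson interval 65.6 to 73.0%, counting error only and with peaks taken as independent). The share over all pooled peaks was 79.4%, and 86.6% over coding promoter peaks. Another 176 members were found in replicate 1 alone, 1 in neither replicate and 0 in replicate 2 alone. The authors' replicated list overlapped 486 members (83.9%), against 93.3% of coding promoter peaks.

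Support followed the fold. The pooled list was divided into quintiles by fold, and 33.2% of noncoding peaks fell in the lowest quintile, against 12.1% of coding promoter peaks. In that quintile 15.6% of noncoding peaks were found in both replicates, against 11.5% of coding promoter peaks. In the next quintile the shares were 90.0% for noncoding and 84.5% for coding promoter peaks, and in the upper 3 quintiles every peak of either class was found in both. Within a quintile, the noncoding share was thus not below the coding share. The 402 members found in both replicates had a median width of 1263.5 bp and a median fold of 14.4, against 568 bp and 3.93 for those found in replicate 1 alone. Across those 402 members the fold ranks of the replicates had a Spearman correlation of 0.964, and the widths 0.841. For coding promoter peaks these were 0.955 and 0.839 (n = 13122). Of the 402 members, 98.8% were wider in replicate 1, by a median factor of 1.35, and coding promoter peaks by 1.28.

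At like fold, single noncoding peaks were wider than single coding promoter peaks, the reverse of the overall order. From the lowest to the highest quintile the pooled medians were 595, 866, 1303.5, 1716 and 1903 bp for noncoding peaks, and 457, 677, 1068, 1478.5 and 1858 bp for coding promoter peaks. In the middle quintile the difference was 235 bp in replicate 1 and 248 bp in replicate 2. In the highest quintile it was -14.5 bp in replicate 1 and 127 bp in replicate 2, so no sign held there.

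This order depended on how neighbouring peaks were treated. When pooled peaks within 1000 bp of each other were joined, which was added for the comparison by quintile after seeing the data, the middle quintile gave 1685.5 bp for noncoding and 1893 bp for coding domains. In the lowest quintile the joined noncoding median stayed above the coding one, at 643 and 605 bp, and in the 4 upper quintiles it was below. Joined domains were classed and ranked anew, and 493 noncoding and 10910 coding domains had median widths of 1135 and 1913 bp. A noncoding peak joined to a peak near a coding start left the noncoding class. The sets thus differ from those of single peaks. Of the 579 members, 151 had another peak within 1000 bp.

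**Figure D2:**
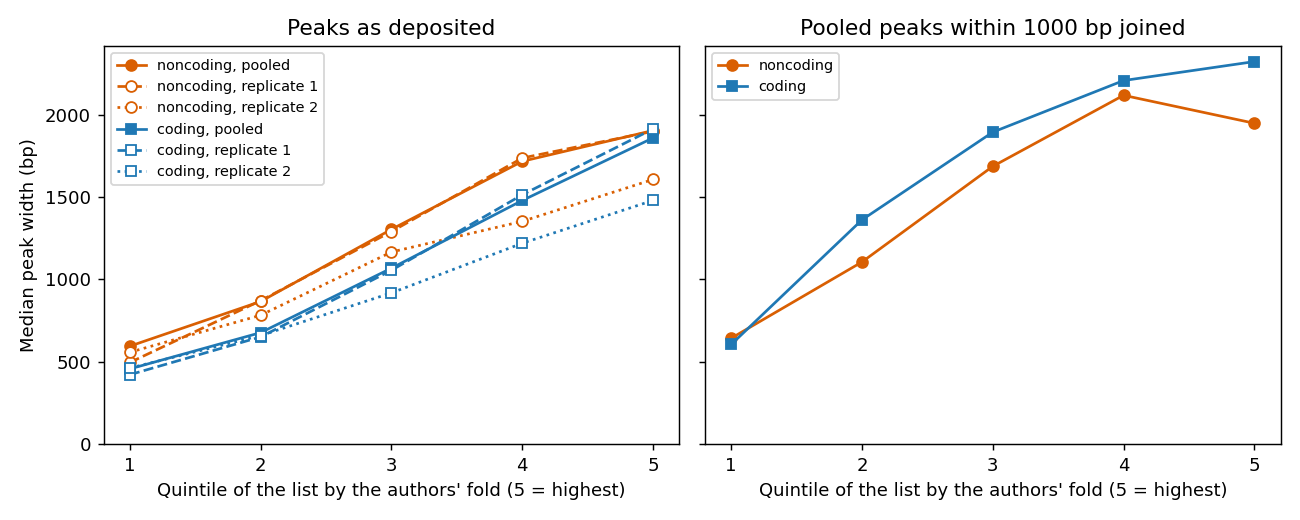
Median peak width in bp (vertical axis) by quintile of the list ranked by the authors' fold (horizontal axis), for noncoding (circles) and coding (squares) promoter peaks. As deposited (left), noncoding medians lie above coding ones in the pooled list and both replicates, except in the highest quintile of replicate 1. With pooled peaks within 1000 bp joined, then classed and ranked anew (right), they lie below from the second quintile up.

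The CpG difference was present at each level of fold. The share of peaks with a CpG ratio below 0.4 was 37.0% for noncoding peaks (214 of 579) and 14.8% for coding promoter peaks. In the lowest quintile of fold it was 49.0% for noncoding and 28.5% for coding promoter peaks, and in the highest quintile 18.5% (10 of 54) and 12.5%. In that highest quintile the interval for the noncoding share, 10.4 to 30.8%, takes in the coding share. The 214 CpG-poor members had a median fold of 6.27 and were found in both replicates in 60.7% of cases, while the 365 others had a median fold of 11.4 and were found in both in 74.5%. Their median widths were close, 973.5 bp for CpG-poor members and 945 bp for the others.

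**Figure D3:**
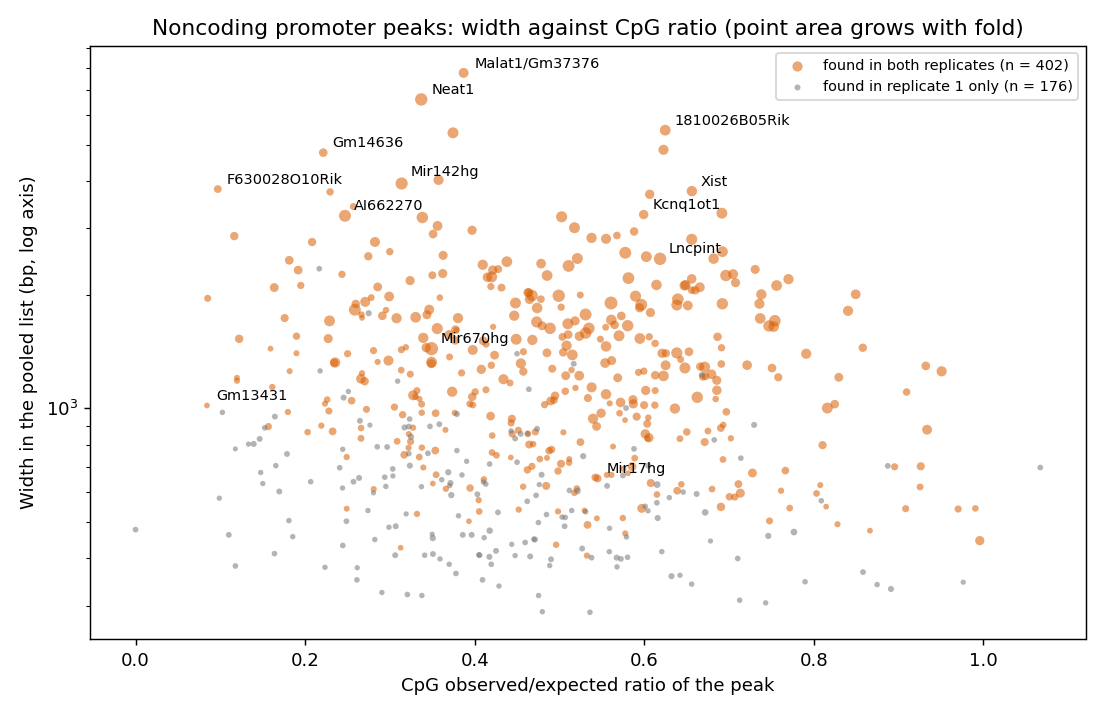
Width of each noncoding promoter peak in the pooled list (bp, log axis) against its CpG observed/expected ratio, with point area growing with the authors' fold. The 402 members found in both replicates and the 176 found in replicate 1 alone are coloured apart, and the 1 found in neither is not drawn. Wide peaks occur at low CpG (F630028O10Rik, 3815 bp at 0.0970) and at higher CpG (1810026B05Rik, 5466 bp at 0.625).

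The peaks sat around the annotated starts much as at coding genes. Both classes were chosen for lying within 1000 bp of a start of their type, so this likeness is partly set by the rule. The start nearest to the summit lay inside 64.2% of noncoding peaks, against 61.3% of coding promoter peaks (n = 13000, all over 1000 bp from noncoding starts). The summit lay a median of 179 bp downstream of that start at noncoding and 203 bp downstream at coding promoters, and on the downstream side in 69.6% and 68.1% of peaks. Where the peak covered the start, it reached a median of 409.5 bp upstream and 725.5 bp downstream at noncoding starts, and 486 and 964 bp at coding starts.

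Over genes, 407 of the 13369 genes of the 7 types (3.04%) had a member peak found in both replicates. Among protein-coding genes, 10869 of 21938 (49.5%) had a peak in both replicates at any start. These shares are not like measures, since the noncoding one counts only peaks apart from coding starts. Of the 11029 noncoding genes with every start over 1000 bp from coding starts, 513 (4.65%) had a peak in both replicates. A further 1544 noncoding genes had a peak only where it also lay within 1000 bp of a coding start, and so stand outside the rule. By type the share with a member peak in both replicates was 9.75% of processed_transcript genes (77 of 790), 3.79% of lincRNA genes (222 of 5854), 1.89% of antisense genes (56 of 2959) and 1.49% of TEC genes (48 of 3219). None of the 190 bidirectional_promoter_lncRNA genes had one, which the distance rule largely fixes, since 4 of them have every start over 1000 bp from coding starts. Counting each member once by the gene whose start was nearest its summit, 321 belonged to lincRNA genes, 97 to processed_transcript, 91 to antisense, 62 to TEC, 7 to sense_intronic and 1 to sense_overlapping genes. The median fold was 12.7 for processed_transcript, 9.36 for TEC, 8.86 for lincRNA and 7.19 for antisense members. The antisense members of highest fold after Snhg7os were A930015D03Rik, whose nearest coding gene was Gnl1, with 35.8, and Gm16897, near the stem-cell antigen gene Cd34, with 32.1. The highest TEC members were AA914427, near the mitochondrial citrate carrier gene Slc25a1, with 37.6, Gm43852, near Pisd, with 32.5, and Gm30238, near Zbtb42, with 32.4. B930059L03Rik, a lincRNA near the dynein gene Dync1h1, had 37.8. The sense_intronic members found in both replicates were Gm43445 inside Lmo4, with 19.1, Bach2it1 inside the repressor gene Bach2, with 13.5, and Peg13, with 11.9, and the 1 sense_overlapping member, AC117700.1, had 5.29.

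Most members, 477 of 579 (82.4%), lay between coding genes. The 73 inside a coding gene on its opposite strand had a median fold of 5.93, and the 29 on its same strand 5.85, against 9.78 between genes. The nearest coding start was 1 to 5 kb away for 103 members, 5 to 20 kb for 184, 20 to 100 kb for 231 and over 100 kb for 61. The gene of that nearest coding start had a pooled peak at any of its starts for 435 members (75.1%). Among genes with every start over 1000 bp from coding starts, the nearest coding gene was marked for 74.7% of those with a member peak in both replicates (295 of 395). It was marked for 52.8% of those with no peak (5459 of 10346). Limited to genes within 100 kb of a coding start, the shares were 74.5% and 56.4%.

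Of 13 listed microRNA hosts of the 7 types, 7 had a member peak in both replicates, against 3.04% of all noncoding genes. Mir22hg had a member peak in replicate 1 alone, and 5 had no peak, against 84.3% of all noncoding genes. The 7 were Mir142hg, Mir155hg, Mir17hg, Mir99ahg, Mir670hg, Dleu2 and Lncppara. Outside the list, 6720427I07Rik, host of Mirlet7a-1, Mirlet7d and Mirlet7f-1, was nearest the summit of a peak of fold 5.43, not found in both replicates. A stronger member, at chr13:48544253-48545777, also lay within 1000 bp of a 6720427I07Rik start. It had a fold of 30.8 and was found in both replicates, but the start of the TEC gene Gm37238 was nearer its summit.

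Mir670hg carried the member of highest fold, but away from its microRNAs. This peak, at chr2:94177809-94179248, had a fold of 47.8 in the pooled list, 66.1 in the list of replicate 1 and 29.2 in that of replicate 2, and was 1415 and 1300 bp wide in replicates 1 and 2. It stood at an internal start of this minus-strand gene, 62449 bp downstream of the Mir129-2 hairpin and 82385 bp downstream of the Mir670 hairpin, so transcripts from that start hold neither. The call was lost when gene 5′ ends alone were counted. A second Mir670hg peak, 3357 bp from the Mir670 hairpin, had a fold of 4.51 and was found in replicate 1 alone.

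Peaks of the hosts differed in size. Mir142hg, host of the blood-cell microRNA miR-142, had a fold of 39.8 and spanned 3947 bp at chr11:87754885-87758831. Its peak was 4009 bp wide in replicate 1 and 2522 bp in replicate 2. It lay 1710 bp from the GENCODE start of the coding gene Tspoap1, and a RefSeq mRNA start of Tspoap1 lay within 1000 bp, so it is not apart from coding starts by RefSeq. The call was lost at over 5000 bp from coding starts. F630028O10Rik, host of the myeloid microRNA miR-223, had a fold of 12.8 and a wide peak at chrX:96239897-96243711, 3910 bp in replicate 1 and 3270 bp in replicate 2. Its CpG ratio of 0.0970 was among the 5 lowest of members found in both replicates. Gm4258, from which Mir181a-1 and Mir181b-1 are transcribed, had a fold of 34.5 and spanned 3262 bp in replicate 1 and 2784 bp in replicate 2, at chr1:137898035-137901241, with the Mir181a-1 hairpin 65214 bp beyond the peak.

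Mir155hg, host of miR-155, which is induced by inflammatory signals in macrophages, had a narrow peak in these unstimulated cells. It measured 658 bp in replicate 1 and 338 bp in replicate 2, with a pooled fold of 8.43. The Mir17hg peak, at the host of the growth-associated miR-17 to miR-92 cluster, was also narrow, 673 bp in replicate 1 and 437 bp in replicate 2, with a fold of 13.1. The Dleu2 locus, host of Mir15a and Mir16-1, carried 5 members within 1000 bp of its starts, all found in both replicates, the strongest with a fold of 30.7 and a width of 3311 bp in replicate 1 and 2371 bp in replicate 2. Mir99ahg had a fold of 23.5 and a width of 3157 bp in replicate 1 and 2822 bp in replicate 2, and the Mir99a hairpin lay 267069 bp beyond the peak. The Mir99ahg call was lost when gene 5′ ends alone were counted. Lncppara, host of Mirlet7b and Mirlet7c-2, had a fold of 9.52 and a width of 1307 bp in replicate 1 and 1123 bp in replicate 2.

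For 25 hairpins with coordinates, the host had the start nearest the summit of a member found in both replicates. Of these, 4 touched a peak of their host, those of Mir142, Mir223, Mir5103 and Mir6516. For 23 of the 25 a start with a peak in both replicates lay upstream of the hairpin, and the other 2 were the Mir670hg ones. Taken from the annotation rather than from any list, 20 of 95 microRNA hosts with every start over 1000 bp from coding starts (21.1%) had a peak in both replicates. Among snoRNA hosts it was 16 of 53 (30.2%). These shares stand beside 4.65% of all 11029 noncoding genes so placed, counted the same way.

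**Figure D4:**
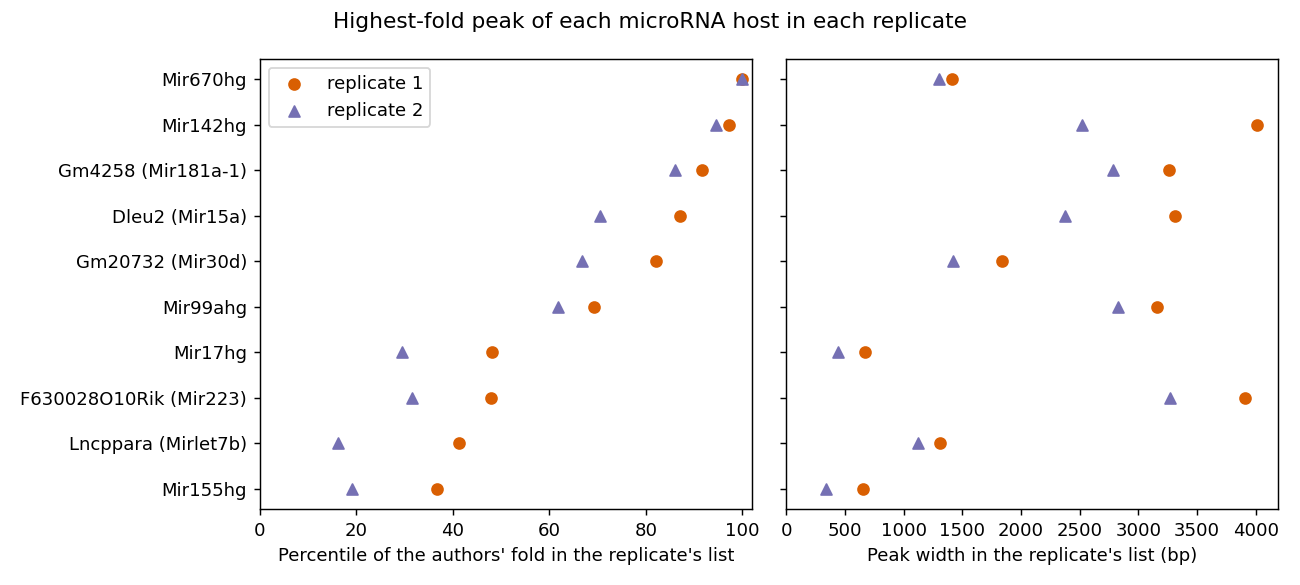
Percentile of the authors' fold in each replicate's list (left) and peak width in bp (right) of the highest-fold peak of 10 microRNA hosts, with circles for replicate 1 and triangles for replicate 2. The hosts are ordered by pooled fold, from Mir670hg (47.8, at a start downstream of its microRNAs) to Mir155hg (8.43), and each peak is wider in replicate 1.

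The snoRNA hosts, many of which carry guide RNAs for ribosomal RNA modification in their introns, varied in fold. Of 18 listed hosts of the 7 types, 10 had a member peak in both replicates, against 3.04% of all noncoding genes. Another 6 had a peak only at a coding start, and 2, Snhg14 and Snhg18, had none. The marked ones were Snhg5, Snhg6, Snhg8, Snhg12, Snhg15, Snhg17, Snhg20, Dancr, Epb41l4aos and 1810032O08Rik, which the annotation lists as Snhg16. Their folds ran from 17.2 at Dancr to 37.6 at 1810032O08Rik. The Snhg12 peak was 1733 bp wide in replicate 1 and 1468 bp in replicate 2, with a fold of 34.1. The Snhg5 peak was 1844 and 1090 bp wide in replicates 1 and 2, with a fold of 30.7. The 6 left out by the rule were Gas5, Snhg1, Snhg3, Snhg9, Snhg10 and Zfas1. By the annotation, Snhg20 was counted as a host of the microRNA gene Mir6516 and not of a snoRNA. Outside the list, folds of snoRNA hosts marked in both replicates ran from 6.93 at 9430037G07Rik, 12.7 at 9330159M07Rik and 14.7 at AI506816 up to 41.2 at 1110038B12Rik. The small RNA inside AI506816, counted as a snoRNA, bears the symbol Mir3096. This last, 1110038B12Rik, host of Snord52, had a width of 2046 bp in replicate 1 and 1797 bp in replicate 2, and Snhg7os, whose peak also lay by the starts of Snora17 and Snora43, had a fold of 45.2.

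Among lncRNAs with reported roles in macrophages and inflammation, 10 of 22 had a member peak in both replicates, against 3.04% of all noncoding genes. Another 1 had a member peak in replicate 1 alone, 7 had a peak only at a coding start and 4 had none. Among the 10, Mir142hg, Mir155hg, Mir17hg, Neat1, Malat1, Pvt1 and Lncpint are also counted in other lists here. Gm14005, named Morrbid by RefSeq and known as a regulator of myeloid cell survival, had a fold of 24.6 and a peak of 2750 bp in replicate 1 and 2298 bp in replicate 2, at chr2:128427468-128430229. Its call was lost when gene 5′ ends alone were counted. Ptgs2os2, known as lincRNA-Cox2 and a regulator of immune genes in macrophages, beside the prostaglandin synthase gene Ptgs2, had a smaller peak, 939 bp in replicate 1 and 625 bp in replicate 2, with a fold of 6.60. Trp53cor1, known as lincRNA-p21, a p53-responsive lncRNA next to Cdkn1a, had a fold of 26.3 and widths of 1574 and 1281 bp in replicates 1 and 2. Pvt1, the neighbour of Myc, had a fold of 19.2 and spanned 2545 bp, of which replicate 1 covered 2545 bp and replicate 2 covered 2021 bp in 3 peaks. The genes with no peak were AW112010, Mirt1, Mirt2 and Nron. Mir22hg had a peak of fold 3.09 found in replicate 1 alone.

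The widest members stood at nuclear lncRNAs. Of 16 nuclear and broadly expressed lncRNAs, 12 had a member peak in both replicates, against 3.04% of all noncoding genes. Tug1 and Rmrp had a peak only at a coding start, and Miat and Meg3 had none. The widest member, 7754 bp at chr19:5795838-5803591, covered the starts of Malat1, a lncRNA of nuclear speckles, and of the TEC gene Gm37376, whose start lay nearest the summit. Peaks of replicate 1 covered 7754 bp of it and peaks of replicate 2 7024 bp, and its fold was 24.2. The peak of Neat1, the scaffold of paraspeckles, lay at chr19:5839317-5845911 and was 7563 bp wide in replicate 1 and 5873 bp in replicate 2, with a fold of 41.3. 1810026B05Rik, annotated as Chaserr, which in mice restrains its neighbour Chd2, spanned 5466 bp, of which peaks of replicate 1 covered 5466 bp and peaks of replicate 2 3913 bp. Lncpint, a p53-linked lncRNA, carried 3 members, and the strongest had a fold of 41.4 and widths of 2680 and 2266 bp in replicates 1 and 2. 1700020I14Rik, known as Oip5os1, had a fold of 33.4, while 2900097C17Rik, known as Norad, had 8.19 and lost its call with a 500 bp start window.

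Other wide members were single peaks in replicate 1 and several peaks in replicate 2. The AC132455.1 member, on the opposite strand inside Zfp36l2, spanned 5379 bp, of which replicate 2 covered 4502 bp in 4 peaks. It reached 5224 bp upstream and 154 bp downstream of the noncoding start. The nearest coding start, that of Zfp36l2, lay 2037 bp away, and Zfp36l2 itself had a pooled peak. Whether the member belongs to the Zfp36l2 promoter was not tested. Lockd, beside the cell-cycle inhibitor gene Cdkn1b, spanned 4849 bp, of which replicate 2 covered 4094 bp in 3 peaks. Gm37352, near Nanos3, spanned 4034 bp, of which replicate 2 covered 3572 bp in 2 peaks. Gm14636, on the X chromosome and 313157 bp from the nearest coding start, that of Tex13c3, was a single peak in either replicate, 5713 bp wide in replicate 1 and 4175 bp in replicate 2, with a CpG ratio of 0.221.

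Of 13 lncRNAs of X inactivation and imprinted loci, 7 had a member peak in both replicates, against 3.04% of all noncoding genes, and 6 had no peak, against 84.3%. Xist, the RNA that coats the inactive X chromosome, had a fold of 27.4 and a peak of 3795 bp in replicate 1 and 3407 bp in replicate 2, at chrX:103480388-103484155. Jpx and Ftx, regulators of Xist, had folds of 20.5 and 21.6, and Ftx carried 4 members over several of its starts. Tsix, the antisense partner of Xist, had no peak. Kcnq1ot1, which silences its imprinted cluster in cis, had a fold of 21.1 and widths of 3252 and 2806 bp in replicates 1 and 2. Peg13 had a fold of 11.9, Airn 9.94 and Nespas 8.86, whose call was lost at over 5000 bp from coding starts. These 4 are known to be transcribed from the paternal allele. H19, Meg3, Rian and Mirg, known to be transcribed from the maternal allele, had no peak, and neither had Snhg14, known to be transcribed from the paternal allele. The lists do not separate the alleles.

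Of 33 lncRNAs of development and other organs, 25 had no peak in the pooled list, a share near the 84.3% of all noncoding genes (11266 of 13369). Hotair, Hottip, Six3os1 and Rmst were among them, as was Sox2ot, which did have a noncoding promoter peak in replicate 1's own list. Bvht, a lncRNA of heart development, and Dlx1as, antisense to a forebrain homeobox gene, had member peaks in replicate 1 alone, with folds of 5.43 and 3.93. Another 4 had a peak only at a coding start. The 2 marked in both replicates were Crnde, with a fold of 11.4 at a start 1821 bp from the coding gene Irx5, lost at over 5000 bp from coding starts and after joining, and Snhg15, which the list reached through a synonym and which is also a snoRNA host.

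**Figure D5:**
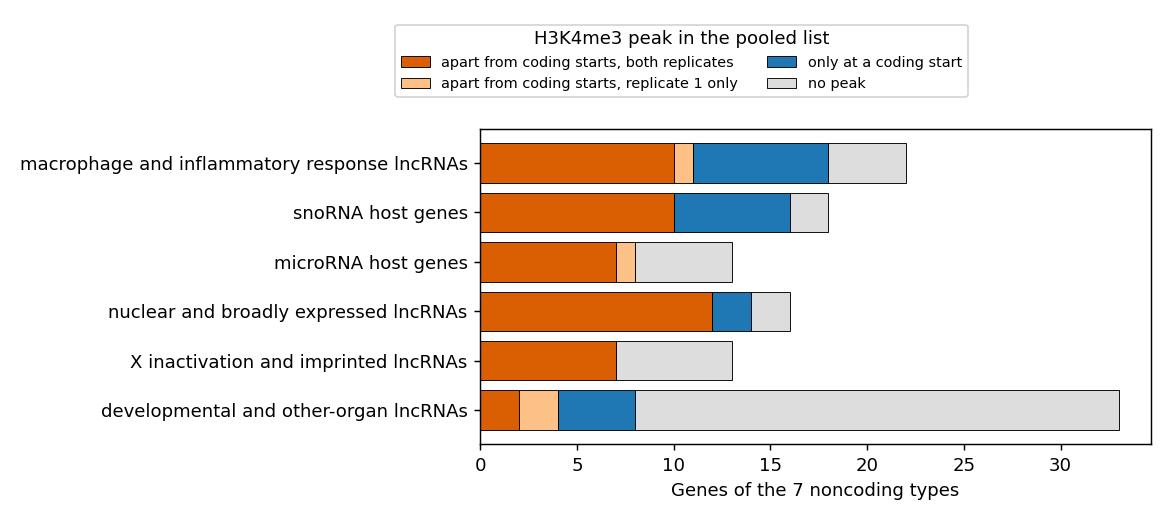
Number of genes of the 7 noncoding types (horizontal axis) in each list by what the pooled list holds at their starts. Genes that stand in several lists are counted in each. The developmental list has 25 of 33 genes with no peak, with 4 of 22 in the macrophage list and 2 of 18 snoRNA hosts, beside 84.3% of all noncoding genes.

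AI662270, near the Schlafen gene Slfn3, combined a high fold of 38.1 with a CpG ratio of 0.247, and was 3384 bp wide in replicate 1 and 2978 bp in replicate 2. The lowest CpG ratios among members found in both replicates were at Gm13431, with 0.0842, and F730311O21Rik, near Nuak2, with 0.0851. Gm13431 lies beside the cyclooxygenase gene Ptgs1, and a RefSeq mRNA start of Ptgs1 stood within 1000 bp of its peak. Gm20559, near the interferon-induced gene Samd9l, had 0.116 and Gm12708, whose nearest coding gene was Jun, had 0.120. Replicate 2 covered 2073 of the 2863 bp of the Gm20559 member and 843 of the 1206 bp of the Gm12708 member. In replicate 2 the peaks at Gm13431 and Gm12708 were among the weakest, with folds of 2.74 and 2.87, at percentiles 0.504 and 0.898 of that list.

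The member farthest from any coding start was Gm6634, 798211 bp from Otol1, with a fold of 10.7 and widths of 1582 and 1399 bp in replicates 1 and 2. 2610035D17Rik lay 390201 bp from Sox9, with a fold of 25.1 and widths of 1139 and 592 bp. Gm30382, near Adgrl2, and Gm47450, near Akr1e1, lay 454314 and 333356 bp from a coding start, with folds of 7.77 and 12.5.

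The members of highest fold not found in replicate 2 were a TEC gene beside Gfi1, 5830411K02Rik, at 8.19, then second peaks of 2610035D17Rik at 8.10, Gm20732 at 8.02 and Gm26901 at 7.69, and 4932422M17Rik at 6.93. The second peaks of Gm20732 and Gm26901 stood beside stronger ones of the same gene found in both replicates, with folds of 28.5 and 28.2. At 4932422M17Rik the peak of replicate 1 that overlapped the 474 bp member was 3092 bp wide.

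Motifs were searched by exact letters on both strands in the 300 bp around each summit, 12 in all, and N stands for any base. Most were about as frequent in noncoding as in coding promoter peaks. The PU.1 form GAGGAAGT was in 2.42% of noncoding, 1.82% of coding and 2.11% of all peaks. The AP-1 form TGANTCA was in 5.70%, 5.18% and 5.74%. The C/EBP form TTGCNNAA was in 9.84%, 10.7% and 10.8%, and CCAAT in 27.6%, 27.0% and 27.0%. The GC box GGGCGG was in 20.0% of noncoding, 24.9% of coding and 23.3% of all peaks. Among peaks with a CpG ratio of 0.4 or more the GC box shares were 26.0% for noncoding and 26.6% for coding. The cyclic AMP response element TGACGTCA was in 7 noncoding peaks, 1.21%, against 0.402% of coding and 0.450% of all peaks. TATAAA was in 8.81% of noncoding, 7.28% of coding and 8.23% of all peaks. Among CpG-poor peaks TATAAA was in 13.1% of noncoding and 7.21% of coding promoter peaks, and it was in 12.7% of peaks away from both kinds of start. A match is a run of letters in the sequence and not evidence of binding.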

How the data were processed

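Peak lists from H3K4me3 ChIP-seq of 2 BMDM replicates were used. Per the provenance texts deposited with the files, the authors made 1 list from each replicate's alignments, a pooled list from both together and a replicated list. Each deposited peak carries a fold (a ratio) and a −log10 p by the authors, in the narrowPeak layout. The aligner, peak caller, cut-offs and what the fold is relative to: not given in the sources used here. The assembly is mm10 per the labels, and 0 peak ends passed a chromosome end of GRCm38.p6. Starts came from GENCODE M21 on 21 chromosomes. Scripts used Python 3.11.15, pandas 2.3.3 and pysam 0.24.0, and their interval functions were tested on simulated data. CpG ratios are observed over expected CpG within the peak.

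The members and lists were chosen with earlier results of these data known. Of 110 listed symbols in 6 lists, 103 matched a gene, 9 of them through a synonym. Some genes stand in several lists and are counted in each, so the lists are not separate sets. Named genes are these and, among members found in both replicates, the 10 of highest fold, the 10 widest, the 3 of highest fold per type, the 5 of lowest CpG ratio and the 5 farthest from a coding start, with the 5 of highest fold found in 1 or no replicate. Other hosts and clones named were chosen after their values were seen. Alternatives varied the start window, the coding distance, the starts counted, the list, the −log10 p rank, gene types, joining and replicates.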

Additional observations from a re-analysis of the deposited data

How the results depend on the processing

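The number of members was 520 with a 500 bp start window, 476 at over 5000 bp from coding starts, 789 with gene 5′ ends alone and 384 among the 15000 peaks of highest −log10 p. Each replicate's own list gave 436 to 632. The median width of 966 bp moved to 1020.5 bp with the 500 bp window, 1022 bp with gene 5′ ends alone, 1106 bp in the replicated list, 1283.5 bp among the 15000 peaks and 1135 bp after joining, and was 889.5 to 936.5 bp in single replicates. The median percentile of fold was 33.4 in the pooled list. It was 35.0 with the 500 bp window, 38.8 with gene 5′ ends alone, 32.0 in the replicated list, 35.0 among the 15000 peaks and 28.5 after joining. It was 32.6 when peaks within 1000 bp of RefSeq mRNA starts were also left out, an alternative chosen after seeing the data that removed 55 members. In single replicates the CpG ratio was 0.458 to 0.508. The share found in both replicates was 82.5% in the replicated list and 96.4% among the 15000 peaks. For these moves the cause was not tested, beyond what the alternatives do by construction, fewer weak peaks or longer joined ones. Of the 36 listed genes marked in both replicates, 32 stayed marked at over 5000 bp from coding starts, where Mir142hg, Epb41l4aos, Nespas and Crnde were lost. With gene 5′ ends alone Gm14005, Mir99ahg and Mir670hg were lost, and Dnmt3aos and Zeb2os were gained. With replicate 1's own list, Sox2ot, Dlx1as and Bvht were gained and none was lost. The 500 bp window lost 2900097C17Rik, and joining lost Crnde. No paired analysis was possible because there is 1 group. Depth is unknown, so a start with no peak is one with none in the pooled list, not one shown to lack the mark.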
